A study of Urocitellus parryii with 44 samples.

Results

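The genes described here encode the machinery that shortens, removes and makes the poly(A) tail of mRNA and that degrades the mRNA afterwards. They were chosen by symbol: names beginning with Cnot, Dcp, Exosc, Xrn, Edc, Upf, Smg, Pabp, Patl, Ago with a digit, Tnrc6, Cpsf, Cstf or Papol, together with Pan2, Pan3 and Parn. The choice gave 131 of the 38400 probes, for 54 of the 11786 gene symbols on 4 membranes of mouse cDNA probes. Of the 131 probes, 130 had enough values for a test. The 1 left out was a Cnot10 probe on membrane MA07, with values in 2 summer animals and in no torpid animal. Dcpp3, which encodes a salivary gland protein, met the rule by the letters of its symbol alone, and its single probe is named separately.

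Brown adipose tissue, the heat-producing fat of mammals, was taken from arctic ground squirrels (Urocitellus parryii) of 2 groups. The first group held 3 summer active animals sampled in August, and the second held 5 animals in winter torpor, the state of lowered metabolism and body temperature in hibernation. No genotype, sex, age or drug was given for the animals in the sources used here. Total RNA, labelled with a radioactive isotope of phosphorus, was hybridised to membranes MA07, MA08, MA10 and MA11, each with 9600 probes. Summer animals 1 and 2 and torpid animal 5 each had their RNA divided and hybridised as technical duplicates, whose log2 mean stands for the animal. Season and activity state differed together between the groups and cannot be told apart.

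Most mRNAs end in a poly(A) tail that is added in the nucleus after the cleavage and polyadenylation complex has cut the transcript, and poly(A)-binding proteins coat it. Decay usually starts when the PAN2-PAN3 and CCR4-NOT deadenylases shorten the tail, after which the cap is removed and the body is degraded from either end, by XRN exonucleases or by the exosome. Argonaute and GW182 proteins bring the deadenylases to targets of microRNAs, and nonsense-mediated decay removes transcripts with a premature stop codon. In hibernators, transcription and translation are known to be strongly lowered in torpor, so that the fate of existing mRNA is a long-standing question in hibernation.

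Each value below is the log2 of the deposited spot intensity, which was divided by the median of its column, so that 0 is the median probe of a membrane. A difference is the torpid mean minus the summer mean on that scale, with its standard error (SE) from limma, and 37848 probes were tested in all. Adjusted p is the Benjamini-Hochberg value over all of them. A signal percentile gives the place of a probe's mean level among the probes of its membrane. A change that touched all transcripts alike cannot be seen on this scale. In bulk tissue, fewer cells of a type and less RNA per cell cannot be told apart. Squirrel RNA was hybridised to mouse cDNA of unequal length and similarity, so levels of different probes are not compared as amounts of RNA.

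The number of arrays limits the precision: the median SE was 0.29 over all tested probes and 0.30 over the members. Empty cells made up 2.43% of the members' values and 3.45% of all values. Of 12 listed brown adipocyte markers, 6 were read on the membranes, with brightest-probe signal percentiles from 7.23 (Dio2) to 86.0 (Ppargc1a) and a median difference of -0.44. Ppargc1a gave -0.76, Elovl3 -0.70, Dio2 -0.58, Cidea -0.31 and Pparg -0.20, whereas Prdm16 gave 0.56. Ucp1 was not analysed here. White adipocyte markers were read for 3 of 4 genes, with differences of -1.997 for Agt, -1.58 for Psat1 and -0.09 for Lep. Agt and Psat1 had an unadjusted p under 0.05, and their limma adjusted p was 0.055 and 0.15. The signal percentiles were 77.6 for Lep, 94.1 for Agt and 97.7 for Psat1. An unadjusted p under 0.05 was reached by 5 of 13 immune probes, beside 11.6% of all tested probes. It was reached by 2 of 7 white adipocyte, 1 of 6 muscle, 1 of 6 endothelial and 1 of 17 nerve probes. No brown adipocyte or erythroid probe reached it. Of the immune probes that did, a Cd74 probe gave -0.66, an H2-Eb1 probe -0.80 and an Lcp1 probe 1.45. The brightest probes of the other immune markers gave 0.62 for Lyz2, 0.20 for Cd68 and -0.09 for Ptprc. An unadjusted p under 0.05 was also reached by Actn3 of muscle (0.97), Nefm of nerve (0.75) and Vwf of endothelium (-0.99). The other muscle markers had the opposite sign, with -0.42 for Ckm, -0.62 for Tnnt1 and -0.38 for Mylpf. Of the endothelial markers, Cdh5 gave -0.90, Cldn5 0.61 and Pecam1 0.36. Of the nerve markers, Nefl gave 0.55, Gfap 0.45 and Mbp -0.04. No probe of the brown, white, muscle, erythroid, immune, endothelial or nerve lists passed an adjusted p of 0.05 in the limma fit. Their part in the values below was not tested.

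Among the 130 tested probes of the decay and poly(A) machinery, 1 passed an adjusted p of 0.05, a Patl1 probe that fell in torpor, and none was higher in torpor at that threshold. The members' share was 0.769%, beside a background of 0.309% over all probes, of which 0.259% were higher and 0.0502% lower. An unadjusted p under 0.05 was reached by 8 members (6.15%), 4 higher (3.08%) and 4 lower (3.08%). The shares over all probes were 11.6%, with 6.39% higher and 5.18% lower. The groups did not overlap for 7 members (5.38%), 3 higher (2.31%) and 4 lower (3.08%). Over all probes that share was 8.5%, with 4.37% higher and 4.13% lower. With 1 call the adjusted share rests on a single probe, and the members' shares at both other criteria were below those of all probes.

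The differences of the members lay close to 0. Of the 130, 58 were positive and 72 negative, with a median of -0.02 beside 0.00 over all tested probes. The median size of the difference, without its sign, was 0.22 in the members and 0.27 in all probes. A difference smaller than 0.5 was found for 104 members (80.0%), against 76.2% of all probes. The 95% interval lay wholly between -1 and 1 for 77 members (59.2%), against 54.3% of all probes. For the other members the interval reached past 1 in size, so a change of 2-fold or more lay within it. The membranes differed in this respect. On MA10, 6 of 36 intervals (16.7%) lay between -1 and 1, whereas 32 of 39 (82.1%) did on MA07, 23 of 29 (79.3%) on MA08 and 16 of 26 (61.5%) on MA11. All tested probes had a like order, with 14.5% on MA10, 73.4% on MA07, 69.9% on MA08 and 58.4% on MA11. The MA10 members also had a larger median SE, 0.43, than those of MA07 and MA08, both 0.23. Over all tested probes it was 0.43 on MA10, 0.23 on MA07 and 0.25 on MA08.

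**Figure D1:**
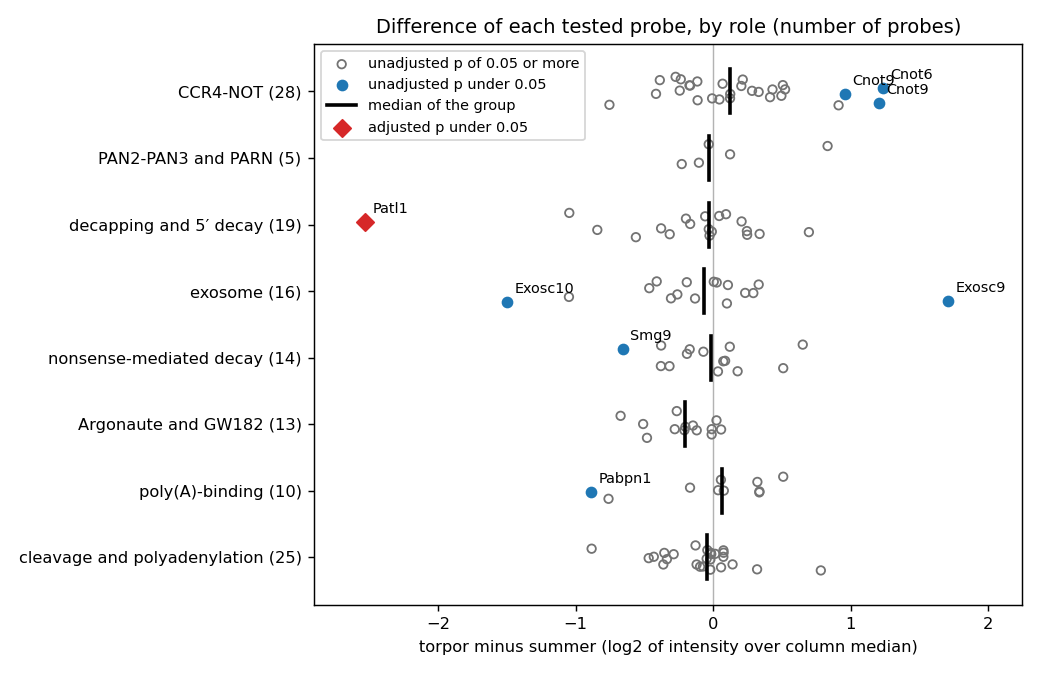
Difference in log2 intensity, torpor minus summer (horizontal axis), for the 130 tested probes in 8 role groups (vertical axis, number of probes in brackets). Each mark is a probe and each black bar the median of a group. The decapping group includes the probe of Dcpp3. The Patl1 probe at -2.53 is the only one past an adjusted p of 0.05, and 104 probes lie within 0.5 of 0.

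The CCR4-NOT complex, the main cytoplasmic deadenylase, was read by 28 tested probes for 10 subunits. Of these, 17 differences were positive and 11 negative, with a median of 0.12. The median was 0.04 with first duplicates only, 0.07 without summer animal 3, and 0.19 without summer animal 1 or without summer animal 2. No probe passed the adjusted test. An unadjusted p under 0.05 was reached by 3 of the 28 probes, beside 11.6% of all tested probes (6.39% higher and 5.18% lower). The 3 were all higher in torpor, and they belonged to Cnot6 and Cnot9.

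Cnot6 encodes a catalytic deadenylase subunit. Its MA10 probe 6064 read 1.34, 1.70 and 0.49 in summer animals 1 to 3 and 2.14, 2.52, 2.07, 2.91 and 2.44 in torpid animals 1 to 5. All torpid animals were above all summer animals, and summer animal 3 was the lowest. The means were 1.18 ± 0.62 (SD, n = 3) and 2.42 ± 0.34 (SD, n = 5), a difference of 1.24 ± 0.40 (SE; 95% interval 0.40 to 2.07; limma adjusted p = 0.22). The other 4 Cnot6 probes gave -0.01 to 0.52, and 3 of them were positive. The MA07 probe was brighter, at percentile 87.3, than probe 6064 at 84.7, and its difference was 0.13 ± 0.25 (SE).

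Cnot9 encodes the CAF40 subunit, which binds regulatory proteins such as GW182 proteins. Its MA10 probe 2770 read 0.38, 0.47 and -0.39 in summer and 2.46, 1.07, 1.69, 0.52 and 1.07 in torpor. The groups did not overlap, but torpid animal 4 lay only just above summer animal 2. The difference was 1.21 ± 0.45 (SE; 95% interval 0.26 to 2.15; limma adjusted p = 0.30). A second, brighter probe on MA11 (percentile 96.6) read 2.90, 3.86 and 2.72 in summer and 4.66, 3.90, 4.61, 3.34 and 4.11 in torpor. Torpid animal 4 was below summer animal 2 there, so the groups overlapped. Its difference was 0.96 ± 0.35 (SE; 95% interval 0.19 to 1.73; limma adjusted p = 0.32). The remaining Cnot9 probes gave 0.05 ± 0.30 on MA08 and -0.24 ± 0.56 on MA10 (SE).

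Cnot1, the scaffold on which the complex assembles, showed little difference on any of its 3 probes. The brightest, on MA08 at percentile 81.8, read 1.01, 0.46 and 1.86 in summer and 1.15, 0.75, 0.77, 0.66 and 1.05 in torpor. The torpid animals lay inside the summer range. Its difference was -0.23 ± 0.29 (SE; 95% interval -0.87 to 0.40), beside -0.11 ± 0.43 on MA10 and 0.07 ± 0.22 on MA11. The other catalytic subunits had probes of both signs. Cnot7 ranged from -0.27 to 0.50, Cnot8 from -0.17 to 0.91 and Cnot6l from -0.75 to 0.51. Cnot7 and Cnot8, and Cnot6 and Cnot6l, are close paralogs whose transcripts may share signal on these probes, so their separate values are uncertain. Among the noncatalytic subunits, Cnot2 gave -0.11 to 0.28, Cnot10 -0.41 and 0.22, and Cnot11 0.43 ± 0.33 (SE). Cnot4, a ubiquitin ligase associated with the complex, gave -0.39 ± 0.32 (SE) at percentile 5.37.

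**Figure D2:**
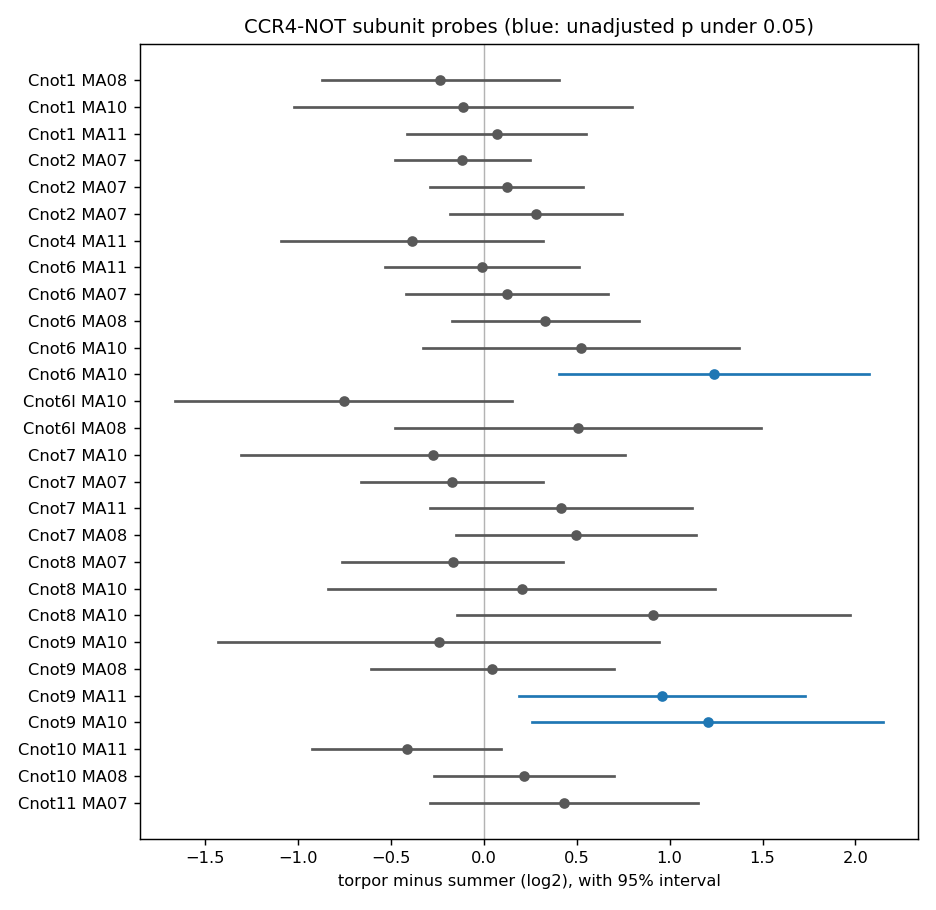
Difference in log2 intensity, torpor minus summer, with its 95% interval (horizontal axis) for the 28 tested CCR4-NOT probes, named by gene and membrane (vertical axis). Only the Cnot6 probe at 1.24 and the Cnot9 probes at 0.96 and 1.21 have an interval without 0, and every gene with 1 of these also has a probe whose difference is below 0.

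The PAN2-PAN3 deadenylase, which trims long tails, and PARN, a poly(A)-specific exonuclease, were read by 5 probes, and none reached an unadjusted p of 0.05. Pan3, the adaptor subunit, gave -0.23 ± 0.21 and 0.12 ± 0.22 (SE) on MA07. Pan2, the catalytic subunit, was read at percentile 1.66 and in 2 summer and 3 torpid animals, with -0.03 ± 0.54 (SE; 95% interval -1.20 to 1.13). Parn gave 0.83 ± 0.50 on MA11, at percentile 4.80, and -0.10 ± 0.22 on MA07 (SE).

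The decapping and 5′ decay group, formed by symbol, held 19 probes for 8 symbols, 7 positive and 12 negative, with a median of -0.03. These counts include the positive probe of Dcpp3, the salivary gland protein, which is not part of this machinery. Without 1 animal, the median lay between -0.18 (without torpid animal 1) and 0.06 (without summer animal 2). The called probe of the machinery was here. Patl1 encodes PAT1B, a scaffold that joins deadenylated mRNA to the decapping enzyme. Its MA10 probe 7214, at percentile 81.3, read 2.71, 3.63 and 3.53 in summer and 0.88, 0.47, 1.63, 1.005 and -0.17 in torpor. Every torpid animal was below every summer animal, and torpid animal 5 was the lowest. The means were 3.29 ± 0.50 (SD, n = 3) and 0.76 ± 0.66 (SD, n = 5). The signal fell by 2.53 ± 0.43 on the log2 scale (SE), a 5.77-fold lower level (95% interval -3.45 to -1.61; limma adjusted p = 0.020).

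The separation of the groups at this probe was also present in the split RNAs. Summer animal 1 read 2.40 and 3.03 in its duplicates, summer animal 2 read 4.43 and 2.84, and torpid animal 5 read 0.39 and -0.73. All summer columns were thus above all torpid columns. The adjusted p nevertheless passed the threshold in 5 of 8 fits that left out 1 animal. It was 0.053 without summer animal 2, 0.052 without summer animal 3 and 0.069 without torpid animal 2, with values between -2.82 and -2.30 over the 8 fits.

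The other Patl1 probes did not show this difference. Probe 5599 on MA10 read -2.40, -2.36 and -3.17 in summer and -1.79, -1.86, -1.26, -2.17 and -2.66 in torpor, with a difference of 0.70 ± 0.41 (SE; 95% interval -0.16 to 1.55; limma adjusted p = 0.53). Probe 6594 on MA11 read -1.20, -1.56 and -1.14 in summer and -1.82, -0.99, -1.53, -0.83 and -1.46 in torpor, a difference of -0.03 ± 0.27 (SE). In both, the groups overlapped. Their signal percentiles were 15.8 and 15.9. All Patl1 probes carry that symbol through the platform annotation, and the identity of their clones could not be checked here. The probe with the next number on MA10, annotated to Il3ra, also read lower in torpor, by -1.41 ± 0.48 (SE; limma adjusted p = 0.26), and the probe with the previous number, of Dnajc5, gave 0.17 ± 0.58 (SE). Whether consecutive numbers are neighbouring spots is not given in the sources used here, and the part of either in the Patl1 value was not tested.

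The decapping enzyme itself showed small differences. Dcp2, the catalytic subunit, gave -0.38, -0.20 and -0.01 on MA11. Dcp1a, its activator, gave -0.56 ± 0.30 at percentile 6.65 and 0.04 ± 0.37 at percentile 60.2 (SE). Of the enhancers of decapping, Edc4 gave -0.84 ± 0.43 and 0.34 ± 0.53 (SE), both on MA10, and Edc3 gave -0.32 and -0.03. Xrn2, the nuclear 5′ to 3′ exonuclease, gave -0.17 to 0.25 on 4 probes and -1.05 ± 0.61 (SE) on the other. At that probe, on MA10, torpid animals 1 and 4 read -2.32 and -2.37 while torpid animals 2 and 3 read -0.22 and -0.16, inside or next to the 2 summer values of -0.21 and -0.07. Dcps, the scavenger enzyme that acts on the released cap, gave -0.06 ± 0.25 (SE), and Dcpp3 gave 0.25 ± 0.19 (SE).

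**Figure D3:**
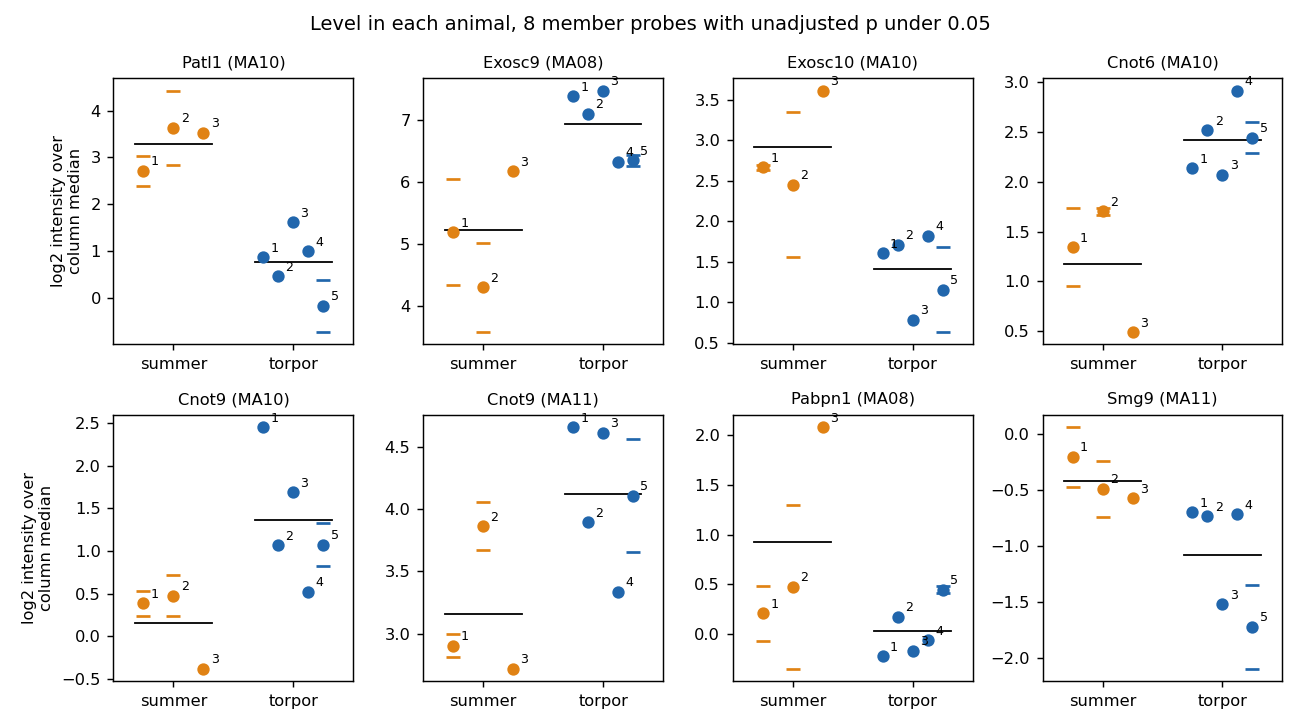
Level in log2 intensity over the column median (vertical axis) in each summer and torpid animal (horizontal axis), for the 8 member probes with an unadjusted p under 0.05. Dots are animals, short dashes the duplicates of a split RNA and black lines group means. The groups do not overlap for Patl1, Exosc9, Exosc10, Cnot6, Smg9 and the MA10 probe of Cnot9, and they overlap for the MA11 probe of Cnot9 and for Pabpn1.

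The exosome, the complex that degrades RNA from the 3′ end in nucleus and cytoplasm, was read by 16 probes for 8 subunits, 8 positive and 8 negative, with a median of -0.06. The median was 0.13 without summer animal 2 (9 positive, 7 negative) and -0.14 without summer animal 1 (4 positive, 12 negative). The largest differences of these probes lay in opposite directions, and neither passed the adjusted test. Exosc9, a subunit of the ring, was read by the member probe with the highest signal percentile, number 884 on MA08 (99.9). It read 5.19, 4.30 and 6.17 in summer and 7.38, 7.10, 7.48, 6.33 and 6.35 in torpor. The groups did not overlap, and summer animal 3 lay close to torpid animals 4 and 5. The difference was 1.71 ± 0.41 (SE; 95% interval 0.80 to 2.61; limma adjusted p = 0.14). It was 2.19 with an adjusted p of 0.041 in limma without summer animal 3, and 0.95 with an adjusted p of 0.37 after cyclic loess scaling. The other Exosc9 probe, at percentile 1.30, read -2.36, -0.68 and -2.23 in summer and -2.20, -0.93, -2.08, -4.17 and -1.43 in torpor. Its groups overlapped, with a difference of -0.41 ± 0.63 (SE).

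Exosc10 encodes a catalytic exonuclease of the nuclear exosome and was read by a single probe, number 3806 on MA10 (percentile 85.1). It read 2.67, 2.46 and 3.62 in summer and 1.61, 1.71, 0.79, 1.82 and 1.16 in torpor. All torpid animals were below all summer animals. The means were 2.91 ± 0.62 (SD, n = 3) and 1.42 ± 0.43 (SD, n = 5), a difference of -1.50 ± 0.41 (SE; 95% interval -2.35 to -0.64; limma adjusted p = 0.15). It kept an unadjusted p under 0.05 in all 8 fits that left out 1 animal, with values from -1.73 to -1.15, and an adjusted p under 0.05 in none. The probes with the numbers before and after it, of Commd2 and LTO1, gave 0.26 ± 0.45 and -0.38 ± 0.40 (SE).

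Of the remaining exosome subunits, Exosc1, part of the cap of the complex, gave -1.05 ± 0.50 (SE; limma adjusted p = 0.46) on MA07 and 0.11 ± 0.33 (SE) on MA08. The MA07 probe read 3.49, 2.01 and 0.66 in summer and 0.69 to 1.39 in torpor. Summer animal 3 was below all torpid animals and summer animals 1 and 2 were above them. Exosc2, also of the cap, gave 0.33 and 0.23. The ring subunits lay between -0.46 and 0.29: Exosc4 gave -0.46 ± 0.23 (SE), Exosc5 -0.26 to 0.01, Exosc7 -0.31 and -0.13, and Exosc8 0.03 to 0.29.

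Nonsense-mediated decay was read by 14 probes for 5 genes, 7 positive and 7 negative, with a median of -0.02 and no probe past the adjusted test. Without summer animal 2, 2 differences were positive and 12 negative, with a median of -0.24, and after cyclic loess scaling 5 were positive and 9 negative, with a median of -0.11. Smg9, a partner of the SMG1 kinase, had the smallest p. Its MA11 probe read -0.20, -0.49 and -0.57 in summer and -0.70, -0.73, -1.52, -0.72 and -1.72 in torpor. The groups did not overlap, and torpid animals 3 and 5 lay well below the other 3. The difference was -0.66 ± 0.29 (SE; 95% interval -1.30 to -0.02; limma adjusted p = 0.42), and the MA08 probe gave -0.17 ± 0.23 (SE). Smg1, the kinase that acts on UPF1, gave 0.04 to 0.18 on its 4 probes, at percentiles from 32.5 to 96.8. Upf2, an adaptor of the surveillance complex, gave -0.07 to 0.51, and Smg5, which recruits decay enzymes, gave -0.38 and -0.32. Smg6, the endonuclease of the pathway, gave 0.65 ± 0.51 (SE) on its brightest probe, where summer animal 2 read 2.26 and the other summer animals 4.56 and 5.28. Without summer animal 2 the difference was -0.23, and without summer animal 3 it was 1.28. Its remaining probes gave -0.19 and -0.38.

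Poly(A)-binding proteins were read by 10 probes for 4 genes, 7 positive and 3 negative, with a median of 0.07. It was 0.23 without summer animal 2 and -0.0029 with first duplicates only. The 3 negative probes were those of Pabpn1, the nuclear poly(A)-binding protein that controls tail length. Its MA08 probe read 0.21, 0.48 and 2.08 in summer and -0.22, 0.18, -0.17, -0.06 and 0.45 in torpor. Summer animal 3 stood far above all others, and the groups overlapped. The difference was -0.89 ± 0.37 (SE; limma adjusted p = 0.39), and -0.31 without summer animal 3. The remaining Pabpn1 probes gave -0.76 ± 0.44 on MA10 and -0.17 ± 0.20 on MA07 (SE), the latter at percentile 87.5.

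Pabpc1 encodes the main cytoplasmic poly(A)-binding protein, which protects the tail and promotes translation. Both of its probes were dim. Probe 4898 on MA07, at percentile 10.6, read -2.08, -2.44 and -2.05 in summer and -1.97, -2.17, -2.23, -1.07 and -1.82 in torpor. Probe 4908, at percentile 3.56, read -3.11, -2.55 and -3.64 in summer, had no value in torpid animal 2, and read -2.56, -2.52, -2.67 and -3.29 in the other torpid animals. The groups overlapped in both, and the differences were 0.34 ± 0.27 and 0.34 ± 0.30 (SE). Pabpc4, a related cytoplasmic protein, gave 0.04 to 0.32 on 4 probes, and Pabpn1l gave 0.51 ± 0.39 (SE). Pabpc1 and Pabpc4, and Pabpn1 and Pabpn1l, resemble each other in sequence, so their values may hold shared signal.

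Argonaute and GW182 proteins, the effectors of microRNA silencing, were read by 13 probes for 6 genes. Of these, 11 differences were negative and 2 positive, with a median of -0.20, and no probe reached an unadjusted p of 0.05. This balance rested on summer animal 3: without it, 7 differences were positive and 6 negative, with a median of 0.01. Without torpid animal 1 all 13 were negative, with a median of -0.25. After quantile scaling 11 of the 13 were negative, and after cyclic loess scaling 12 were. Tnrc6a, a GW182 protein, had 6 probes from -0.67 to 0.06. The lowest, on MA11, read -0.33, 1.01 and 1.04 in summer and -0.41, -0.14, -0.05, 0.17 and -0.07 in torpor. Summer animals 2 and 3 were above all torpid animals and summer animal 1 was not. The limma adjusted p of that probe was 0.45. Ago2, the Argonaute protein that can cut its target, read -0.93, -1.59 and -1.57 in summer and -1.62, -1.52, -1.89, -2.03 and -2.16 in torpor, a difference of -0.48 ± 0.23 (SE; limma adjusted p = 0.46). Torpid animal 2 lay inside the summer range. Ago1 gave -0.51 and -0.01, Ago3 -0.12, Tnrc6b -0.20, and Tnrc6c -0.28 and -0.01. Members of each of these families are alike in sequence and may share signal, so the 13 probes are not independent readings.

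The cleavage and polyadenylation factors, which form the 3′ end of nuclear transcripts, had the largest share of probes near 0 of the 8 role groups: the differences of 23 of 25 (92.0%) were smaller than 0.5. Of these 25 probes for 10 genes, 8 were positive and 17 negative, with a median of -0.04, and 21 intervals lay between -1 and 1. The median was -0.17 without summer animal 2 and -0.01 without summer animal 3. Cpsf2, a subunit of the cleavage factor that holds the endonuclease, had the lowest value, -0.88 ± 0.43 (SE; limma adjusted p = 0.46), on MA11 probe 2111. That probe read 4.37, 2.1999 and 4.23 in summer and 3.01, 3.10, 2.33, 2.49 and 2.65 in torpor. Summer animal 2 lay below all torpid animals, with duplicates of 3.26 and 1.14, and the other summer animals lay above them. Without summer animal 2 the difference was -1.58 with an adjusted p of 0.051 in limma. The remaining 3 Cpsf2 probes, at percentiles from 61.5 to 96.1, gave -0.01 to 0.14.

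Cstf1, a subunit of the cleavage stimulation factor, had a small difference with groups that did not overlap. Its MA07 probe read 0.47, 0.55 and 0.28 in summer and 0.01, 0.26, 0.03, 0.02 and 0.16 in torpor. The difference was -0.34 ± 0.16 (SE; limma adjusted p = 0.46), and the MA08 probe gave -0.12 ± 0.22 (SE). Cstf2, which binds the downstream element of the RNA, gave 0.78 ± 0.41 at percentile 26.2 and 0.06 ± 0.23 at percentile 27.8 (SE). Its paralog Cstf2t gave -0.36 to -0.04 on 4 probes, and Cstf3 gave 0.08 on both probes. Cpsf3, the endonuclease, gave 0.32 and -0.29. Cpsf1 gave -0.47 ± 0.37 (SE), Cpsf4 -0.35 and -0.02, and Cpsf6 -0.43 to -0.02. Papola, the poly(A) polymerase that makes the tail, gave 0.08 ± 0.37 and -0.02 ± 0.24 (SE).

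Several probes per gene allowed the readings annotated to 1 gene to be set side by side. Whether each clone belongs to its annotated gene could not be checked here. Of 42 genes with at least 2 tested probes, 19 had all probes on the same side of 0, 7 positive and 12 negative, and 23 had probes on both sides. In 11 genes the probes spanned more than 1 on the log2 scale. In none did every probe reach an unadjusted p of 0.05. Taken by gene, the median of the probes lay within 0.5 of 0 in 49 of 54 genes. The brightest probe of a gene, the only tested probe in 12 genes, was positive in 20 of 54 (37.0%). The matching shares over all genes were not worked out, so none of these counts by gene has a background beside it.

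**Figure D4:**
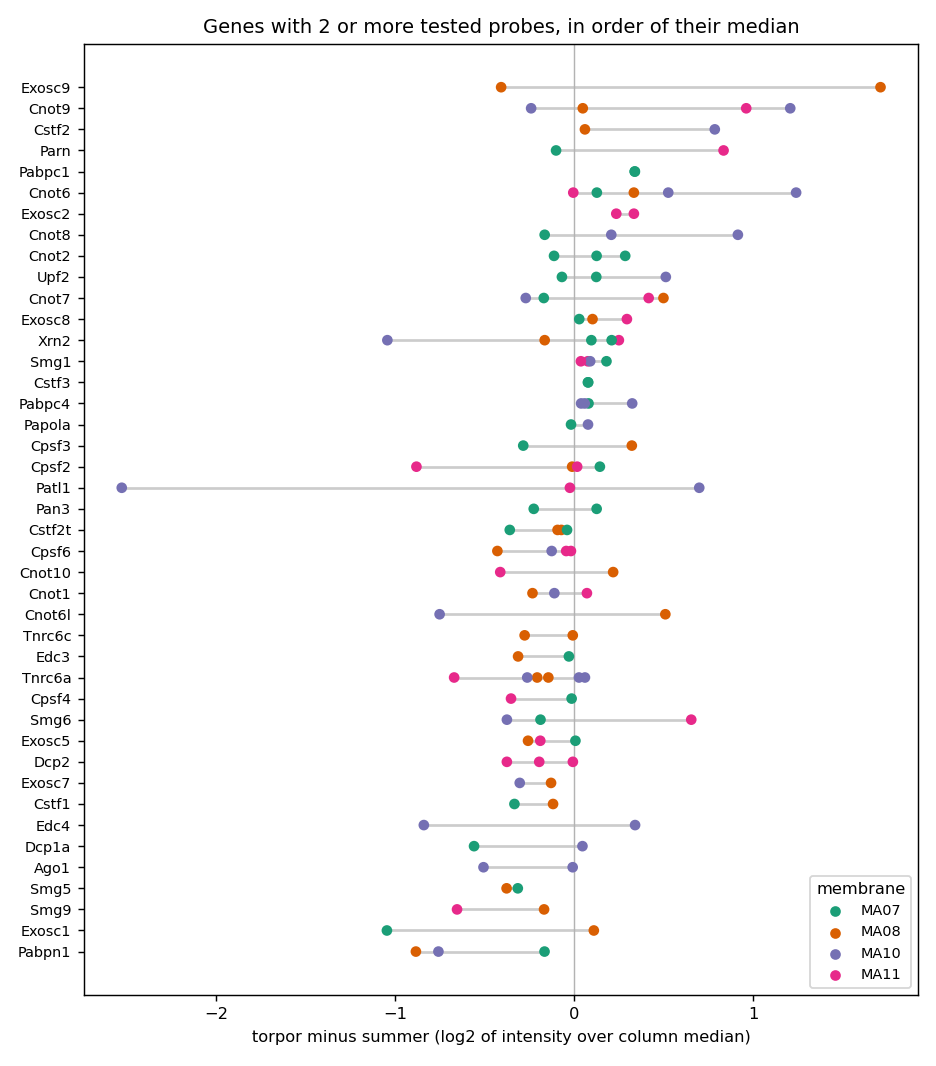
Difference in log2 intensity, torpor minus summer (horizontal axis), of every tested probe of the 42 genes with at least 2 (vertical axis, ordered by median); colours mark the membrane. Patl1 spans from -2.53 to 0.70 and Exosc9 from -0.41 to 1.71, while the pairs of Pabpc1 (0.34 and 0.34) and Cstf3 (0.08 and 0.08) lie on each other.

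For 5 genes the same clone was spotted on MA08 and MA11, which gave a technical repeat of the whole measurement. Cnot7 gave 0.50 and 0.41, Exosc5 -0.26 and -0.19, Exosc8 0.10 and 0.29, and Cpsf2 -0.01 and 0.02. Xrn2 gave -0.17 and 0.25. The gap between the membranes was therefore smaller than 0.5 in all 5, and the sign differed for Cpsf2 and Xrn2. The Cpsf2 clone had a percentile of 61.5 on MA08 and 96.1 on MA11, so the level of a clone relative to its membrane was not constant. The duplicates of a split RNA differed in the members by a median of 0.41 in summer animal 1, 0.44 in summer animal 2 and 0.27 in torpid animal 5, beside 0.44, 0.44 and 0.32 over all probes.

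Over the 119 members with values in all 8 animals, summer animal 3 was the highest in 19.3% and torpid animal 1 in 18.5%, against 17.2% and 15.1% of all probes. Torpid animal 3 was the lowest in 16.8% of the members, against 12.02% of all probes, and its median deviation from the members' means was -0.14, against 0.01 over all probes. The median deviations of the other 7 animals in the members lay between -0.04 and 0.09.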

How the data were processed

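The authors deposited linear spot intensity values per membrane and column, already divided by the column median, as the values show. How images were read, whether background was subtracted and why some cells are empty was not given in the sources used here. Values were taken to log2 from the deposited intensity, with empty cells missing and no floor, and duplicates of a split RNA were averaged, so that n counts animals. The limma package (3.58.1, under R 4.3.3) fitted every membrane separately (lmFit, then eBayes, two-sided) where both groups had a minimum of 2 animals with a value. P-values were adjusted by Benjamini-Hochberg over the 37848 tested probes of the 4 membranes, with a threshold of 0.05. The fit was tested on simulated data.

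Genes came from the platform annotation, which can be old: 25070 probes had 1 symbol, and 50 of the 54 members match the squirrel RefSeq annotation, all but Ago1, Ago3, Dcpp3 and Pabpn1l. The members, lists and tests were chosen with earlier results of these data known. Named in full were the called probe with all probes of its gene and the probes with an unadjusted p under 0.05. Each role group added up to 4 genes with the smallest p, and Cnot1, Pabpc1 and the range of every other gene were given whatever their values. Extreme animals and same-clone pairs were described after their values were seen. The animals are taken as separate squirrels from the labels. Samples with the same replicate number correlated at 0.020, 0.0073 and 0.0076 in their deviations, so the numbers were not used as pairs. Alternatives covered scaling, a floor, dim probes, missing values, weights, the prior, the adjustment, duplicates, a replicate block and each animal left out.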

Additional observations from a re-analysis of the deposited data

How the results depend on the processing

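The member probes called were 1 in the reported fit, 0 with second duplicates only, 0 with the replicate block, and 0 to 1 when each animal was left out. The 1 called without summer animal 3 was the Exosc9 probe, higher in torpor, and not Patl1. The Patl1 probe kept its direction in all these fits, with adjusted p of 0.060 for second duplicates and 0.076 for the replicate block (limma). Members at an unadjusted p under 0.05 numbered 8, 14 with first duplicates only, and 8 to 11 without 1 animal. The share over all probes at this criterion is given here for the reported fit alone. The counts under the other settings therefore have no background beside them. The members' median was -0.02, -0.089 with the replicate block, and -0.06 to -0.00079 without 1 animal. Over all probes, 117 were called (98 higher, 19 lower), 63 after cyclic loess (46 higher, 17 lower), 238 without the dimmest 25% of probes, 228 with a trend and robust prior, 176 with first duplicates, 38 with second duplicates, 32 with the replicate block, and 17 to 347 when an animal was left out. The count was 347 without summer animal 1 and 17, 45, 50 and 60 without torpid animals 2, 1, 3 and 4. The cause of these shifts was not tested. Same-numbered animals did not deviate together, and the block is reported only for its counts. Leaving out Dcpp3, chosen after seeing the data, left both the called count and the count at an unadjusted p under 0.05 unchanged, with a median of -0.02. Between 0 and 23 members changed sign under a setting, and no called value reversed. Signal over background was not analysed here, so a dim probe such as that of Pan2 cannot be said to be above background.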

Other observations

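Other genes of the same pathways, from a list of 73 written down for this comparison, were on the membranes for 51 genes with 136 tested probes. Of these, 67 differences were positive and 69 negative, with a median of -0.00 beside 0.00 over all probes. An unadjusted p under 0.05 was reached by 11 probes, 8 higher and 3 lower in torpor. These shares of 8.09%, 5.88% and 2.21% were below the 11.6%, 6.39% and 5.18% of all probes. The adjusted test was passed by 1 of the 136 probes, beside 0.309% of all probes (0.259% higher and 0.0502% lower), so this share rests on a single probe. It belonged to Cpeb2, which encodes a protein that binds the cytoplasmic polyadenylation element of mRNAs. Its MA11 probe read 1.25, 0.67 and 0.56 in summer and 2.68, 2.46, 2.16, 2.74 and 2.23 in torpor. The groups were far apart, and the signal rose by 1.62 ± 0.25 (SE; 95% interval 1.08 to 2.17; limma adjusted p = 0.024). The adjusted p ranged from 0.0097 to 0.077 when 1 animal was left out and passed in 3 of 8 such fits, those without summer animal 1, torpid animal 3 or torpid animal 5, with values from 1.49 to 1.84. It was 0.068 after cyclic loess scaling, with a value of 1.27. Over all alternatives the limma adjusted p was as high as 0.11, and the threshold was not passed in 7 of them. The MA07 probe of Cpeb2 had too few values to test.

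The remaining probes of that list with an unadjusted p under 0.05 did not pass the adjusted test, and most of their genes had further probes nearer 0 or of the other sign. Of 5 probes of Pum2, an RNA-binding protein that recruits CCR4-NOT, the 1 on MA07 read 1.14, 0.48 and 0.60 in summer and 1.26 to 1.93 in torpor, a difference of 0.83 ± 0.23 (SE; limma adjusted p = 0.21). Its groups did not overlap, and the other 4 probes gave -0.03 to 0.32. Btg2, which activates deadenylation, was read by a single probe, which gave -0.57 ± 0.18 (SE) and also had groups that did not overlap. Among the translation termination factors, a Gspt1 probe gave 1.19 and its other 4 probes -0.07 to 0.48, and an Etf1 probe gave 0.87 and its other 6 probes -0.13 to 0.70. Hbs1l, which acts on stalled ribosomes, had a probe at 0.59 and others at -1.01 and -0.21. Paip2, an inhibitor of poly(A)-binding protein, had a probe at 0.43 and others from -0.54 to 0.46. A Cpeb4 probe gave 1.18 and its other 3 probes -0.38 to -0.13, and an Angel2 probe gave -1.07 and its other 5 probes -0.13 to 0.24. Pcf11, a termination factor, had a probe at -0.68 on MA07 and a probe at 0.93 on MA10, each with groups that did not overlap and in opposite directions, and a further MA10 probe at 0.40.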
